A study of Mus musculus with 30 samples.

Results

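The replication-dependent histone genes encode the H1, H2A, H2B, H3 and H4 proteins that package newly copied DNA. They were taken as the protein-coding rows, in both deposited count tables, that carry a family symbol (H1f1 to H1f5, or H2ac, H2bc, H3c or H4c with a number, or an older Hist1h or Hist2h name). The rule used no measured value and found 63 of 55471 genes, made up of 5 H1, 17 H2A, 17 H2B, 12 H3 and 12 H4 genes. Of the 62 members matched by symbol to RefSeq on assembly GRCm38.p6, 52 lie on chromosome 13 and 10 on chromosome 3.

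The counts came from bone marrow of C57BL/6 mice given MTP10-HDL, a lipoprotein nanoparticle built to train innate immunity through a muramyl peptide, or phosphate-buffered saline (PBS). Hematopoietic stem cells (HSCs) gave 6 MTP10-HDL and 7 PBS libraries, and multipotent progenitors (MPPs) gave 3 MTP10-HDL and 2 PBS libraries. As 4 mice were pooled for each RNA library, the tests compare pools and not single animals. Labels of the MPP samples give 3 injections in 5 days with marrow taken on the following day, name only MTP-HDL as injected, and describe flow sorting after lineage depletion. The HSC labels used here carry no schedule. HSC libraries were built from amplified complementary DNA, whereas MPP libraries were selected for poly-A tails. Library kit and cell type therefore cannot be told apart, and MTP10-HDL was compared with PBS within each table.

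Most messenger RNAs end in a poly-A tail, but messages of this family normally end in a short stem-loop. The stem-loop-binding protein SLBP holds that end, and the U7 small nuclear ribonucleoprotein directs the cut that makes it. The genes lack introns, lie in clusters that hold many near-identical copies, and are transcribed mainly while DNA is copied in S phase. Some members also give transcripts with a poly-A tail. Stem cells in marrow are largely quiescent, and progenitors divide more often, so the family is commonly read beside the genes of DNA replication.

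Promoter windows of 300 bases (250 before and 50 from the annotated start onward) were available for 57 members, in 58 windows. The 4 windows below belong to the H4 and H1 members with the highest level per kilobase in HSC libraries (H4c4 and H1f4) and in MPP libraries (H4c9 and H1f2). They are RefSeq sequences of assembly GRCm38.p6, written 5′ to 3′ on the strand of the gene. Capitals mark exact matches, on either strand, to the CCAAT box, to the TATA box in the form TATAAA, to the octamer ATTTGCAT or to the H1 element AAACACA.
H4c4 (chr13:23581318-23581617, plus strand): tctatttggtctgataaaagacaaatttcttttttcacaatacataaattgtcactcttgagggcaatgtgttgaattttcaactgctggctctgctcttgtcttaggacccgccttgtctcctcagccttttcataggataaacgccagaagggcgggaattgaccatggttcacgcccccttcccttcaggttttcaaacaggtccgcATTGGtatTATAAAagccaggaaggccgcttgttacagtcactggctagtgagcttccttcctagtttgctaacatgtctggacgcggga
H1f4 (chr13:23622509-23622808, minus strand): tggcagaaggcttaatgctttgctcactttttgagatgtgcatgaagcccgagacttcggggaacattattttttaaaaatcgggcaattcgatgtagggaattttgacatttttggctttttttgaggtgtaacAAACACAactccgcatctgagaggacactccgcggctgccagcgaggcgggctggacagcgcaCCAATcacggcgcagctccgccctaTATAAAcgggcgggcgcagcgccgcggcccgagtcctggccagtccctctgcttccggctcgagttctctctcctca
H4c9 (chr13:22041313-22041612, minus strand): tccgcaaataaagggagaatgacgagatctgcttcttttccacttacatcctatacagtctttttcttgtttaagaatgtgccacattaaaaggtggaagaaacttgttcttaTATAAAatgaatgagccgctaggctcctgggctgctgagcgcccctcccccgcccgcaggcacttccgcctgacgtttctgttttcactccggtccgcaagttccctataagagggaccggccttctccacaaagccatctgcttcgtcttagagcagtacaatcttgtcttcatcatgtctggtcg
H1f2 (chr13:23738557-23738856, plus strand): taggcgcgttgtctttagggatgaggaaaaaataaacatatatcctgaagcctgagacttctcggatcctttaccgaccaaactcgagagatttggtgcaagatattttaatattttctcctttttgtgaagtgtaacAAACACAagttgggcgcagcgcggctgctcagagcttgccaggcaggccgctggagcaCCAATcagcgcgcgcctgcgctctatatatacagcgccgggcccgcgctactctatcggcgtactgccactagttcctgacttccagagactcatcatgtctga

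The letters CCAAT are the recognition core of the factor NF-Y, TATAAA is a form of the TATA box, ATTTGCAT is the octamer known from H2B promoters, and AAACACA is an element known from H1 promoters. CCAAT stood in 50 of the 58 member windows (86.2%), against 37.4% of all 32851 RefSeq promoter windows of the same length. Every H1, H2A, H2B and H3 window held it, but only 3 of 11 H4 windows did. TATAAA stood in 58.6% of member windows and 13.6% of all windows. The octamer was found in 7 of 16 H2B windows and 6 of 16 H2A windows, and in none of the H1, H3 or H4 windows, against 1.74% of all windows. AAACACA stood in 4 of 5 H1 windows, including those of H1f4 and H1f2 printed above, where it begins 115 and 112 bases before the start. It stood in 7.18% of all windows. H4c4 has ATTGG, the reverse strand of CCAAT, 40 bases before its start and TATAAA 32 bases before it. In H4c9 the marked TATAAA begins 137 bases before the start, much farther from it than in H4c4. These matches describe letters at any position in a window, on either strand, and were not tested against the counts.

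Among the 57 members whose strand was known (not H2bc4, H2bc21, H3c1, H3c7, H4c14 and Hist1h2ap), 9 pairs start within 500 bases of each other on opposite strands, and each of the 9 joins an H2A with an H2B gene, 164 to 281 bases apart. In such a pair both genes share the sequence between their starts, so an octamer there is counted for both. Members of a pair nevertheless differed in level. H2ac15 averaged 58.6 CPM over the 13 HSC libraries and its partner H2bc15 averaged 5.12 CPM, where CPM is a count relative to the library total, adjusted by TMM (trimmed mean of M values) and put on 1 scale for each library. H2bc13 averaged 63.6 CPM and its partner H2ac13 2.82 CPM.

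HSC libraries held 4064155 to 7879858 counts in all, of which 1830 to 11585 fell on members. MPP libraries held 11252479 to 32769369 counts, of which 1196 to 4496 fell on members, and MPP MTP10-HDL libraries were deeper than MPP PBS libraries. A total of 3 counts, taken as the floor of detection, corresponds to 0.381 to 0.738 CPM in HSC libraries and 0.0915 to 0.267 CPM in MPP libraries. Of the 12 stem and progenitor genes used to check the labels, each had counts in all 18 libraries. Their mean level was higher in MPP than in HSC libraries for 6 of the 12 and lower for 6, and across kits these levels do not test the labels. Kit averaged 425.2 CPM in MPP and 549.7 CPM in HSC libraries. Slamf1, a marker of stem cells, averaged 1.42 CPM in MPP and 38.4 CPM in HSC libraries, but Procr, also a marker of stem cells, averaged 39.2 CPM in MPP and 21.9 CPM in HSC libraries. Flt3, a marker of progenitors, averaged 807.3 CPM in MPP and 127.5 CPM in HSC libraries. Markers of mature cells were also counted in both kinds of library, and are given at the end.

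In HSC libraries, 57 members had a count somewhere and 42 had one in every library. In MPP libraries the numbers were 46 and 23. The 6 members H2ac1, H2ac18, H2ac19, H2bc18, H3c13 and H3c14 had no count in any of the 18 libraries. The filter on low counts left 41 members to test in HSCs and 21 in MPPs, with 20 tested in both and H4c8 in MPPs alone. The 21 members tested in neither table held at most 131 counts over the 13 HSC libraries (H4c12) and at most 22 over the 5 MPP libraries (H2ac8 and H4c2). Copies of the family are alike enough that reads can match more than 1 gene, and how the authors counted such reads is not given in the sources used here. The levels of single members, in particular of near-identical copies such as Hist1h2bq and Hist1h2br, whose promoter windows are identical over 300 of 300 bases, are therefore uncertain.

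HSCs from MTP10-HDL mice carried histone transcripts at a level that overlapped widely with PBS. Summed over the 63 members, HSC MTP10-HDL libraries 1 to 6 held 738.8, 1588, 1376, 1240, 1026 and 1673 CPM. HSC PBS libraries 1 to 7 held 1557, 1242, 862.3, 1445, 588.5, 1255 and 393.1 CPM. The PBS group held the lowest libraries, PBS 7 and PBS 5, and MTP10-HDL 1 was the lowest treated library. The means were 1274 ± 351.4 CPM with MTP10-HDL (SD, n = 6) and 1049 ± 442.0 CPM with PBS (SD, n = 7), so the difference between them was smaller than the SD of either group. In bulk samples, fewer cells in S phase and less histone RNA per cell cannot be told apart.

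**Figure D1:**
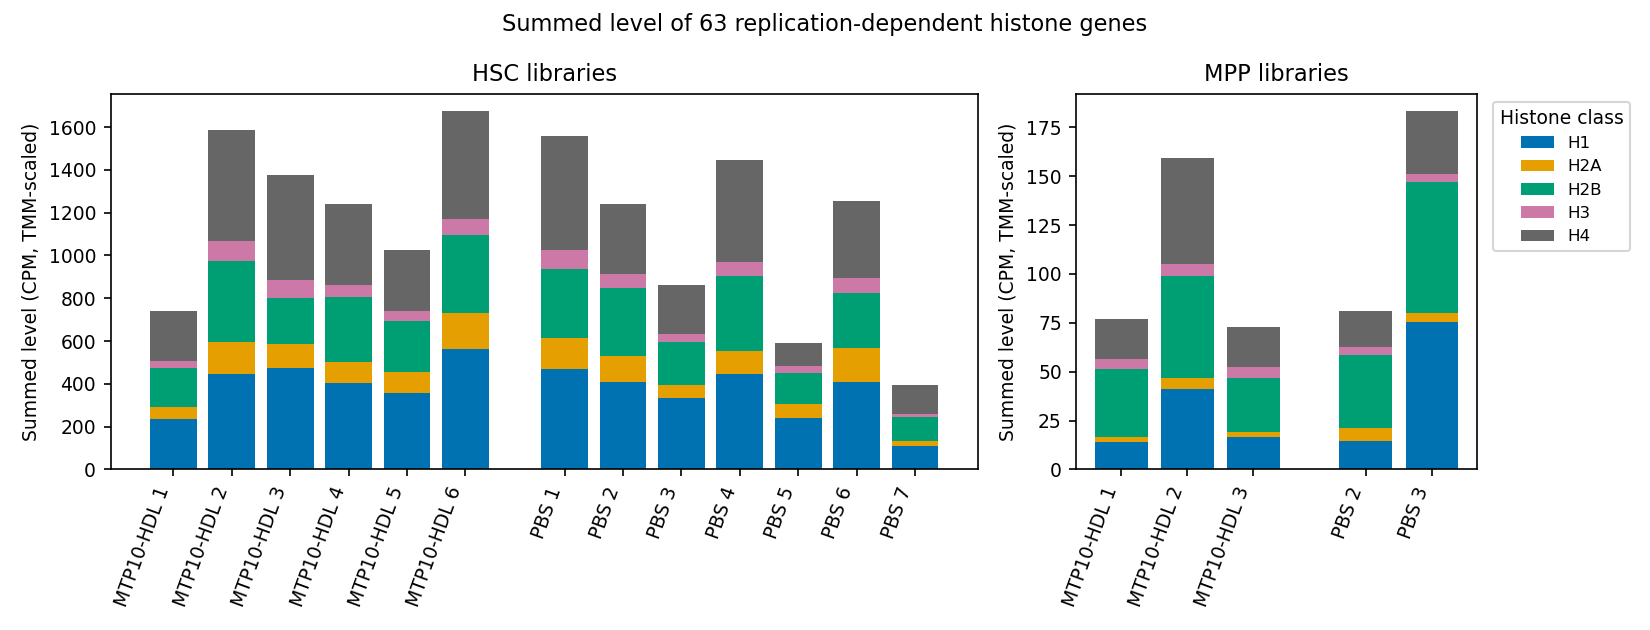
Summed level of the 63 histone genes in each library, in CPM after TMM scaling, with 1 stacked bar per library, MTP10-HDL left of PBS and colours for the 5 histone classes. HSC bars span 393.1 CPM (PBS 7) to 1673 CPM (MTP10-HDL 6), and MPP bars, on an axis of their own, span 73.0 CPM (MTP10-HDL 3) to 183.1 CPM (PBS 3).

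HSC libraries differed in ways that the labels do not describe, so the sum was also read within sets of libraries. The sets were cut by detected genes and then by ribosomal RNA, and the libraries left over formed the last set. In the set with the fewest detected genes (MTP10-HDL 2 and 3, PBS 1 and 4) the mean sum was 1482 CPM with MTP10-HDL and 1501 CPM with PBS, a log2 ratio of -0.02. In the set with the most ribosomal RNA (MTP10-HDL 1 and 4, PBS 2 and 3) the means were 989.6 CPM with MTP10-HDL and 1052 CPM with PBS, a log2 ratio of -0.09. In the remaining set (MTP10-HDL 5 and 6, PBS 5, 6 and 7) they were 1349 CPM with MTP10-HDL and 745.6 CPM with PBS, a log2 ratio of 0.86. Only in this last set, which holds PBS 5 and PBS 7, was the MTP10-HDL mean the higher one. Each set holds 2 or 3 libraries per treatment, and the source of the difference was not tested.

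No histone gene passed the threshold in HSCs, a false discovery rate (FDR) of 0.05 over all genes in edgeR's quasi-likelihood test, and no gene of the table did (0 of 16631, 0%). Of the 41 members tested, 35 were higher and 6 lower with MTP10-HDL, with a median log2 fold change (MTP10-HDL over PBS) of 0.29, while 47.7% of all tested genes were higher and their median was -0.02. The fold changes of members spanned -0.75 to 1.10. An unadjusted p under 0.05 was reached by 1 of the 41 members, H4c6, beside 8.83% of all tested genes. It was higher, as were 4.36% of all tested genes, and no member was lower at that p, beside 4.47%. DESeq2 called 108 genes, none of them a member, and had 1 member at an unadjusted p under 0.05. Limma voom called 0 genes and had 2 such members. In no member did all MTP10-HDL libraries lie above, or all below, every PBS library, which 0.168% of tested genes did in each direction.

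Members shared the HSC libraries in which they were lowest or highest, so their directions are not separate observations. PBS 7 held the lowest level of 23 of the 41 tested members and PBS 5 of 10 more, whereas MTP10-HDL 2 and MTP10-HDL 6 each held the highest level of 10. PBS 7 and PBS 5 were also the HSC libraries with the fewest counts (4064155 and 4215378, against 5467455 or more in the others), and PBS 7 had the most detected genes (37406). The part of depth and of detected genes in the low values was not tested. Without PBS 5 and PBS 7 together, an alternative chosen after the data were seen, 25 of 43 tested members were higher and the median log2 fold change was 0.06. With single libraries left out, the median came to 0.18 for PBS 7, and to 0.19 for MTP10-HDL 2 and also for MTP10-HDL 6.

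The H1 linker histones, which sit where DNA enters and leaves the nucleosome, made up 28.2% to 34.8% of the family's CPM in HSC MTP10-HDL libraries and 27.4% to 41.0% in HSC PBS libraries. Of the 5 H1 genes, 4 were higher with MTP10-HDL (median log2 fold change 0.26). H1f4 (ENSMUSG00000051627, chromosome 13, 23621777 to 23622558) had a lowest, median and highest level of 106.8, 192.3 and 276.6 CPM in MTP10-HDL libraries, against 44.5, 134.0 and 204.4 CPM in PBS libraries. The groups overlapped, MTP10-HDL 6 being the single treated library far above the rest. Its log2 fold change was 0.46 (SE 0.28, edgeR adjusted p = 0.634). H1f5 (chromosome 13, 21779832 to 21780625) stood at 50.9 to 138.7 CPM with MTP10-HDL and 20.0 to 150.4 CPM with PBS (log2 fold change 0.28, SE 0.37), and H1f1 at 31.5 to 65.1 CPM with MTP10-HDL and 26.4 to 51.0 CPM with PBS (0.26, SE 0.20).

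H1f2 (ENSMUSG00000036181, chromosome 13, 23738807 to 23739531) was the H1 gene with a lower value. Its lowest, median and highest levels were 32.04, 38.8 and 54.0 CPM in MTP10-HDL libraries, against 9.24, 52.9 and 90.4 CPM in PBS libraries. Treated libraries lay close together inside the PBS range, which ran between PBS 7 and PBS 4. The log2 fold change of -0.35 (SE 0.34, edgeR adjusted p = 0.762) did not pass.

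H2A and H2B form the dimers that flank the core of the nucleosome. In HSCs, 6 of 7 tested H2A genes and 10 of 13 tested H2B genes were higher with MTP10-HDL (medians 0.28 and 0.25). H2ac15 (chromosome 13, 21753377 to 21753912) had a lowest, median and highest level of 34.6, 61.7 and 110.1 CPM with MTP10-HDL, against 12.03, 56.7 and 106.6 CPM with PBS (log2 fold change 0.29, SE 0.39). H2bc13 (chromosome 13, 21715711 to 21716183) had 47.3, 75.2 and 93.8 CPM with MTP10-HDL, against 23.5, 59.4 and 82.6 CPM with PBS (log2 fold change 0.42, SE 0.27). Both genes had their lowest values in PBS 7 or PBS 5 and overlapped elsewhere.

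The members with lower values in HSCs included H2bc4 and H2bc21, whose human counterparts are known to give transcripts with a poly-A tail. H2bc4 (ENSMUSG00000018102, chromosome 13, 23684199 to 23692480) had a lowest, median and highest level of 2.90, 8.19 and 9.17 CPM with MTP10-HDL, against 2.79, 11.1 and 26.2 CPM with PBS. No treated library reached the PBS median, and PBS 4 stood above every other library. Its log2 fold change of -0.75 (SE 0.42, unadjusted p = 0.0908, edgeR adjusted p = 0.598) was the lowest of the family. H2bc21 (chromosome 3, 96221072 to 96223738) had 28.5, 34.4 and 43.6 CPM with MTP10-HDL, against 17.2, 37.9 and 75.6 CPM with PBS (log2 fold change -0.22, SE 0.27). H2ac6, which lies beside H2bc4 on chromosome 13 (23683473 to 23683959), had a log2 fold change of -0.23 (SE 0.47).

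H3 and H4 form the tetramer at the centre of the nucleosome. Of 9 tested H3 genes 8 were higher with MTP10-HDL (median 0.41), and of 7 tested H4 genes all 7 were (median 0.37). H4c4 (ENSMUSG00000061482, chromosome 13, 23581568 to 23581969) was the most abundant member, with a lowest, median and highest level of 165.4, 317.7 and 363.4 CPM in MTP10-HDL libraries, against 64.2, 244.8 and 396.7 CPM in PBS libraries. PBS 1 lay above all treated libraries, PBS 5 (64.2 CPM) and PBS 7 (104.6 CPM) lay below them, and the other PBS libraries lay within their range. The log2 fold change was 0.37 (SE 0.33, edgeR adjusted p = 0.748).

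H4c14 (chromosome 3, 96262934 to 96263317) and H4c6 (ENSMUSG00000069274, chromosome 13, 23551286 to 23551668) were the higher members of smallest p. H4c14 had 29.3, 43.3 and 53.6 CPM with MTP10-HDL, against 10.1, 34.8 and 43.7 CPM with PBS (log2 fold change 0.55, SE 0.28, unadjusted p = 0.0608, edgeR adjusted p = 0.574). H4c6 had 2.88, 5.32 and 11.6 CPM with MTP10-HDL, against 1.07, 2.99 and 4.29 CPM with PBS (log2 fold change 1.10, SE 0.43, unadjusted p = 0.0201, edgeR adjusted p = 0.497). For H4c6, MTP10-HDL 3 stood apart at the top, and the lowest 2 treated libraries lay within the PBS range.

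Among H3 genes, H3c6 stood at 9.83 to 27.4 CPM with MTP10-HDL and 4.73 to 36.4 CPM with PBS (log2 fold change 0.12, SE 0.36). H3c4 stood at 3.56 to 17.2 CPM with MTP10-HDL and 2.92 to 9.70 CPM with PBS (0.32, SE 0.42, and 0.011 without MTP10-HDL 2), and H3c11 at 3.05 to 8.53 CPM with MTP10-HDL and 0.862 to 6.19 CPM with PBS (0.46, SE 0.43). H3c15 was the H3 gene with a lower value, at 1.19 to 2.90 CPM with MTP10-HDL and 0.172 to 9.05 CPM with PBS (-0.74, SE 0.71). Its PBS libraries spread more widely than its treated ones on both sides.

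**Figure D2:**
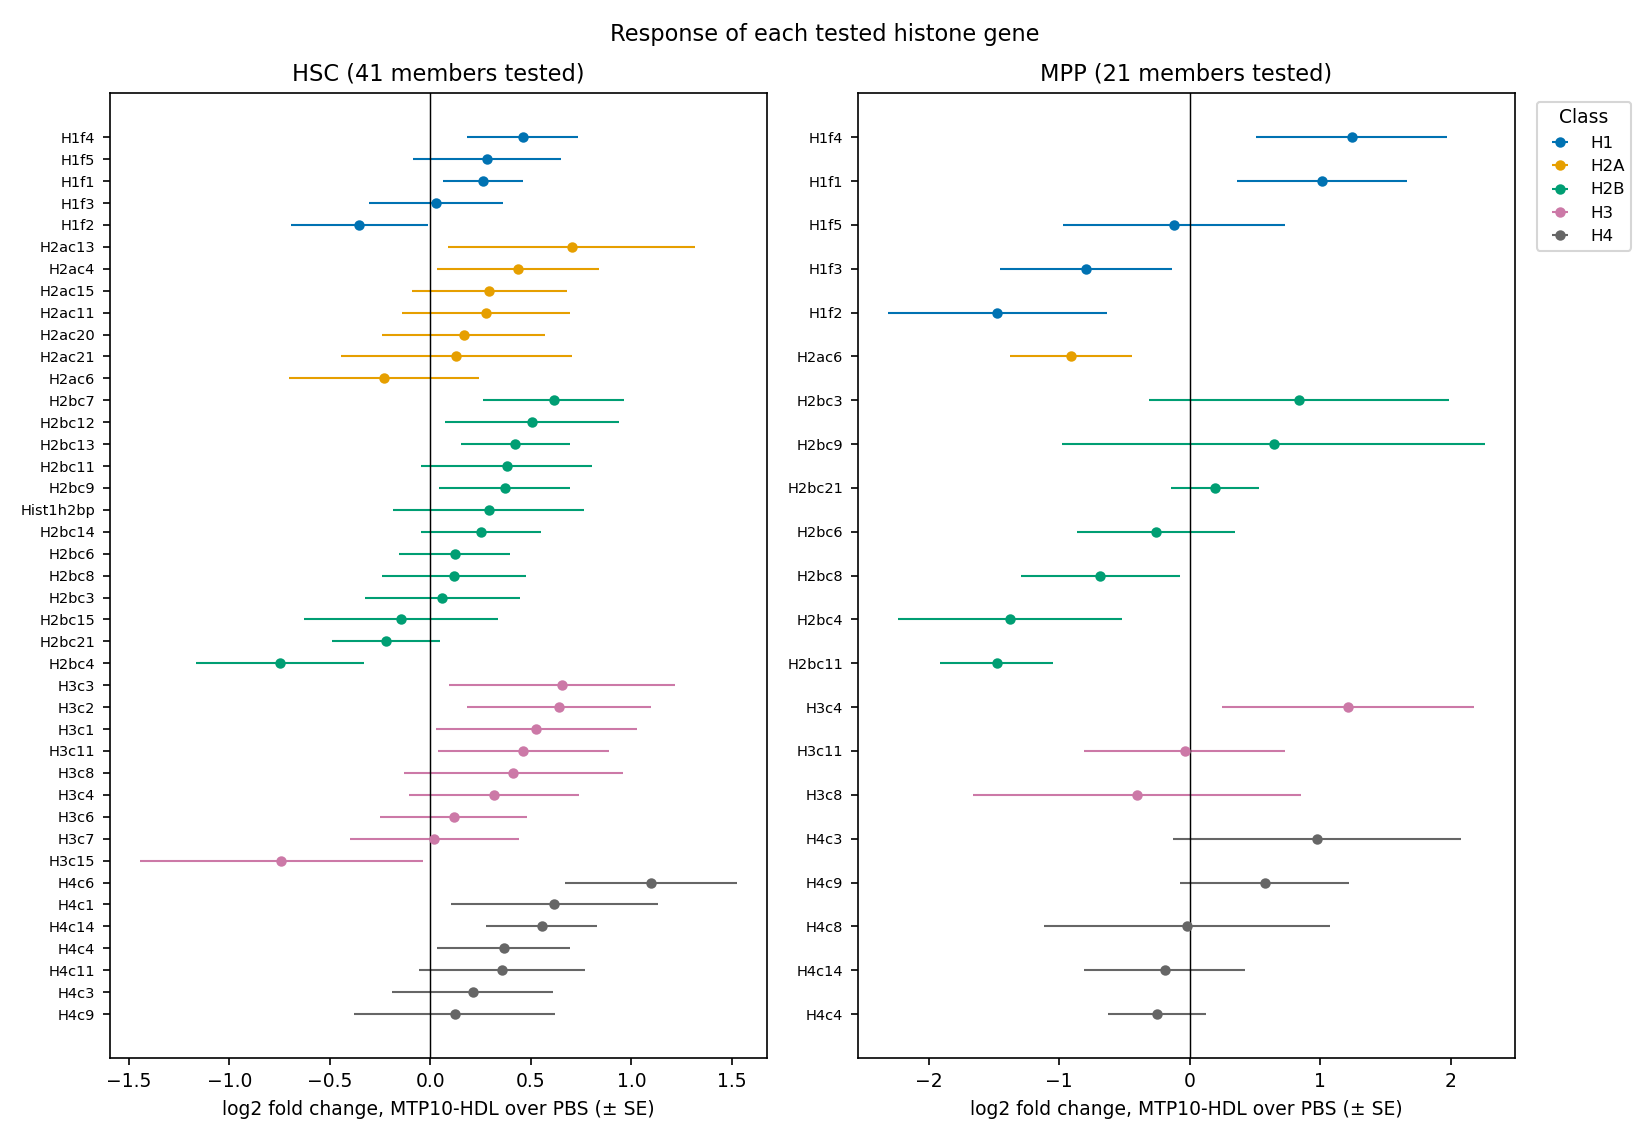
Log2 fold change of each tested member, MTP10-HDL over PBS, with points for the edgeR estimate, bars for 1 standard error on each side and colours for the histone class. HSC points lie between -0.75 (H2bc4) and 1.10 (H4c6) with 35 of 41 to the right of 0, and MPP points between -1.48 (H2bc11) and 1.24 (H1f4) with 8 of 21 to the right of 0.

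In MPPs the summed level was 77.2, 159.4 and 73.0 CPM in MTP10-HDL libraries 1, 2 and 3, against 81.2 and 183.1 CPM in PBS libraries 2 and 3. Each treatment had 1 library well above the rest, MTP10-HDL 2 and PBS 3, and the groups overlapped. The means were 103.2 ± 48.7 CPM with MTP10-HDL (SD, n = 3) and 132.2 ± 72.1 CPM with PBS (SD, n = 2), a difference smaller than either SD.

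No MPP gene passed the FDR threshold in edgeR (0 of 15449 tested, 0%), and no member did. Without the filter on low counts, 345 of 26208 genes did (1.32%), and H1f2 was the 1 member among them (log2 fold change -1.44, adjusted p = 0.000355 in edgeR). H1f2 stood at 64.6 CPM in PBS 3 and at 5.68 to 23.4 CPM in the other MPP libraries. In the filtered fit its log2 fold change was 0.80 without PBS 3. Of the 21 members tested, 8 were higher and 13 lower with MTP10-HDL, with a median log2 fold change of -0.12 and a range of -1.48 to 1.24. Of all tested genes 52.0% were higher, and their median was 0.02. The only member at an unadjusted p under 0.05 in edgeR was H2bc11, beside 6.23% of all tested genes. It was lower, as were 4.06%, and no member was higher at that p, beside 2.17%. DESeq2 called 163 genes and limma voom 0, with no member among them, and each had 1 member at an unadjusted p under 0.05. The direction count rested on single libraries. It was 5 of 20 without MTP10-HDL 2, 15 of 25 without MTP10-HDL 3, 17 of 34 without PBS 2 and 20 of 33 without PBS 3. Leaving out MTP10-HDL 3 gave a median of 0.34, and leaving out PBS 3 gave 0.31.

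H2bc11 (ENSMUSG00000069300, chromosome 13, 22043198 to 22043658) had 5.63, 5.74 and 2.42 CPM in MPP MTP10-HDL libraries 1, 2 and 3, against 11.5 and 14.3 CPM in MPP PBS libraries 2 and 3. Every treated library lay below both PBS libraries, with a log2 fold change of -1.48 (SE 0.44, unadjusted p = 0.0101, edgeR adjusted p = 0.59). The same held for H2ac6, at 2.06, 3.01 and 2.80 CPM with MTP10-HDL and 5.71 and 4.15 CPM with PBS (log2 fold change -0.91, SE 0.47, adjusted p = 0.819 in edgeR), and for H2bc8. Every treated library lay above both PBS libraries for H1f4, H3c4 and H4c3, but at low levels. In PBS 3, H4c3 stood at 0.177 CPM, under the floor of 0.267 CPM in that library, H3c4 at 0.442 CPM and H1f4 at 0.530 CPM. These 3 members below and 3 above stand beside 12.3% and 12.1% of all tested MPP genes.

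H1f2 was the member of highest mean CPM in MPPs, at 5.68, 23.4 and 9.67 CPM with MTP10-HDL and 7.40 and 64.6 CPM with PBS. PBS 3 alone stood far above the others, and the log2 fold change of -1.47 (SE 0.84) became 0.80 without it. H1f4 stood at 2.06, 2.41 and 1.81 CPM with MTP10-HDL and 1.22 and 0.53 CPM with PBS (log2 fold change 1.24, SE 0.73), and H1f1 at 3.33, 8.33 and 3.19 CPM with MTP10-HDL and 1.49 and 3.45 CPM with PBS (1.01, SE 0.65). H1f5 differed by -0.12 (SE 0.85). Of the 5 H1 genes, 2 had higher and 3 had lower values with MTP10-HDL.

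H2bc21 stood at 19.9, 27.6 and 17.0 CPM with MTP10-HDL and 13.5 and 24.3 CPM with PBS (log2 fold change 0.19, SE 0.34), so the groups overlapped. H2bc4 stood at 3.21, 10.7 and 1.32 CPM with MTP10-HDL and 5.30 and 21.3 CPM with PBS (-1.38, SE 0.86), with MTP10-HDL 2 and PBS 3 high, and its log2 fold change was -0.059 without PBS 3. H4c9 (chromosome 13, 22040960 to 22041362) had 12.3, 41.2 and 10.6 CPM with MTP10-HDL and 8.63 and 20.2 CPM with PBS. Its log2 fold change of 0.57 (SE 0.65) became -0.33 without MTP10-HDL 2. H4c4 stood at 4.33, 5.39 and 6.27 CPM with MTP10-HDL and 6.73 and 5.92 CPM with PBS (-0.25, SE 0.38), H4c14 differed by -0.19 (SE 0.62), H3c11 by -0.04 (SE 0.77) and H3c4 by 1.21 (SE 0.96).

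**Figure D3:**
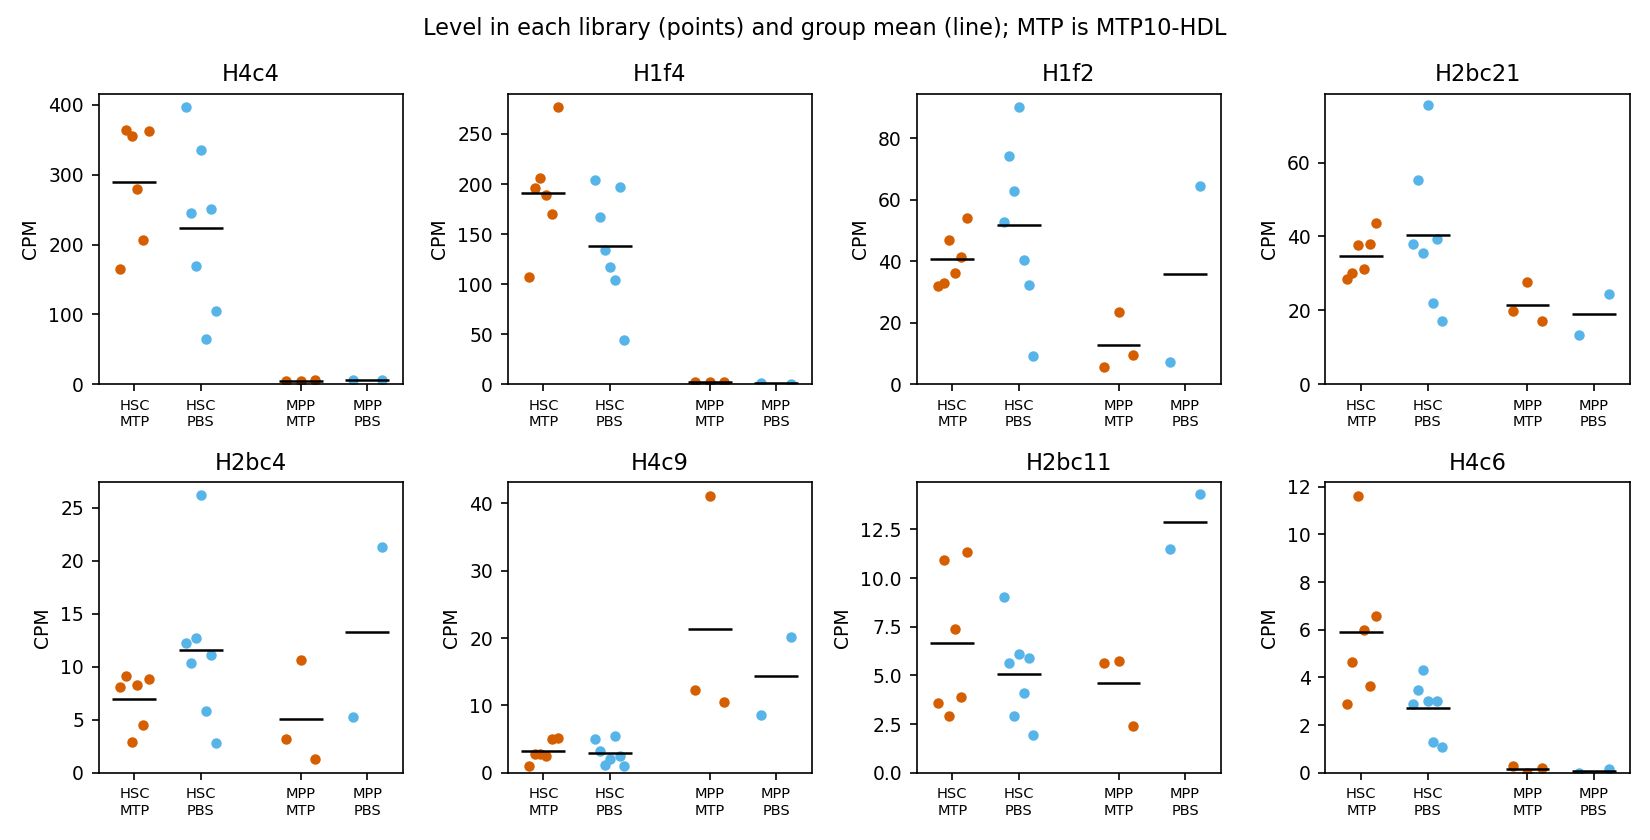
Level of 8 members in each library, in CPM after TMM scaling, with 1 point per library (orange for MTP10-HDL, blue for PBS) and a line at the group mean, each panel on its own axis from 0. MPP PBS 3 stands at 64.6 CPM for H1f2, MPP MTP10-HDL 2 at 41.2 CPM for H4c9 and HSC PBS 4 at 26.2 CPM for H2bc4, each above the other libraries of its group.

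The difference between the responses of MPPs and HSCs was tested in 1 fit over all 18 libraries. Kit effects cancel in it only where they are the same with both treatments, so kit and cell type cannot be told apart here either. The edgeR test called 1 of 24470 genes (0.00409%), which was no member, and all 44 members tested had an adjusted p of 1. Only 20 members had passed the filter in both tables, and the joint filter let in more. Among these, H2ac11, H2ac13, H2bc7 and Hist1h2an had 0 counts in every MPP library, so the fit could show no difference for them. An unadjusted p under 0.05 was reached by 4 of the 44, beside 3.86% of all tested genes, 3 in the negative direction (2.67% of all) and 1 in the positive (1.19% of all). H2bc11 had a difference in log2 fold change, MPP minus HSC, of -1.83 (SE 0.77, adjusted p = 1 in edgeR). H2ac21, H2bc15 and H3c15 had fitted differences of -2.97, -2.78 and 5.44, but each had a count in at most 1 of the 2 MPP PBS libraries, so these values are no measure of size. With limma voom 1 member had an unadjusted p under 0.05.

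Levels in both kinds of library are set side by side without a test, because the kits differ. Of the 20 members tested in both tables, 17 had a lower mean CPM in MPP PBS than in HSC PBS libraries, and 3 had a higher one, H2bc11, H2bc4 and H4c9. Of all 13593 genes tested in both tables, 45.4% had a lower mean in MPP PBS libraries. H4c9 averaged 14.4 ± 8.15 CPM in MPP PBS libraries (SD, n = 2) and 2.92 ± 1.73 CPM in HSC PBS libraries (SD, n = 7), a ratio of 4.93. H4c4 averaged 6.32 ± 0.568 CPM in MPP PBS libraries and 223.7 ± 119.7 CPM in HSC PBS libraries, and H1f4 0.877 CPM in MPP PBS and 138.3 CPM in HSC PBS libraries. H2bc7 had 0 counts in every MPP library and averaged 15.1 CPM over the HSC libraries. H1f2 and H2bc21 lay closer, at ratios of 0.695 and 0.468. By mean CPM, H4c4 was at rank 6 of the 63 members in MPP PBS and rank 1 in HSC PBS libraries, and H4c9 at rank 3 in MPP PBS and rank 33 in HSC PBS libraries.

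**Figure D4:**
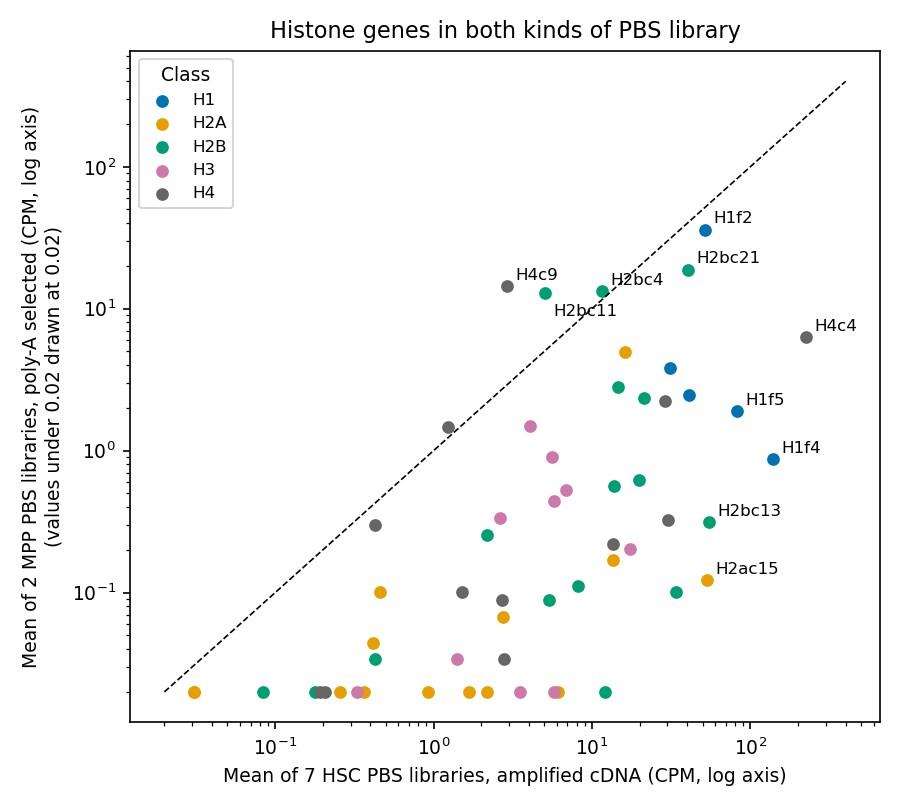
Mean level of each member in the 2 MPP PBS libraries (vertical, poly-A selected) against the 7 HSC PBS libraries (horizontal, amplified cDNA), in CPM on log axes, with a dashed line of equal levels, colours for the histone class, means under 0.02 CPM drawn at 0.02 and members with no count in HSC PBS libraries not drawn. H4c9, H2bc11 and H2bc4 lie above the line, as does H4c8, which was not tested in HSCs, and H4c4 and H1f4 lie far below it at 6.32 and 0.877 CPM in MPP PBS libraries.

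Per kilobase of gene span, and over all 13 HSC libraries, H4c4 had the highest level (631.5 CPM per kb), followed by H1f4 (207.8), H2bc13 (134.5), H1f5 (115.0) and H2ac15 (109.3). Over the 5 MPP libraries H4c9 (46.0 CPM per kb) and H1f2 (30.6) led, followed by H2bc11 (17.2), H4c4 (14.2) and H2ac6 (7.29). H4c4 lay above H1f4, and H1f4 above H2bc13, in all 13 HSC libraries, whereas H2bc13 lay above H1f5 in 10 of 13 and H1f5 above H2ac15 in 6 of 13. In MPPs, H4c9 lay above H1f2 in 4 of 5 libraries, H1f2 above H2bc11 in 3 of 5 and H2bc11 above H4c4 in 3 of 5, so these neighbours did not part beyond their spread. The spans of these intronless genes stand in for transcript length, and 7 members were left out, 6 because their spans exceed 1000 bases (H2bc21, H2bc4, H2bc6, Hist1h2bp, Hist1h2bq and Hist1h2br) and Hist1h2ap because it had no span. H2B genes made up 32.5% to 46.1% of the family's CPM in MPP libraries and 15.6% to 28.7% in HSC libraries.

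Transcripts that process, escort or replace these histones were read from lists chosen with earlier results known, and none of their genes passed the FDR threshold in either table. Of 14 genes for the ends of histone messages, 8 were higher with MTP10-HDL in HSCs (median 0.04) and 8 in MPPs (median 0.06). Slbp itself differed by 0.21 (SE 0.14) in HSCs and 0.23 (SE 0.20) in MPPs. Tut7, a uridylyl transferase that marks histone messages for decay, averaged 257.8 ± 35.6 CPM in MTP10-HDL HSCs (SD, n = 6) and 315.5 ± 53.9 CPM in PBS HSCs (SD, n = 7), a log2 fold change of -0.30 (SE 0.14, edgeR adjusted p = 0.562). Cpsf3, the nuclease that cuts the message, differed by 0.31 (SE 0.16) in HSCs. In MPPs the smallest p of the list belonged to Eri1, an exonuclease of the stem-loop end (0.39, SE 0.21), and Zfp473, a zinc finger protein that binds the U7 particle (0.83, SE 0.47).

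Of the genes listed as replication-independent histones, 7 of 10 were higher with MTP10-HDL in HSCs (median 0.12) and 8 of 11 in MPPs (median 0.17). H2az1, a variant of H2A placed at promoters, averaged 165.7 ± 54.6 CPM in MTP10-HDL HSCs and 122.2 ± 43.1 CPM in PBS HSCs (0.43, SE 0.26), and 415.5 ± 105.0 CPM in MTP10-HDL MPPs and 279.9 ± 41.5 CPM in PBS MPPs (0.57, SE 0.27). Macroh2a1 differed by 0.32 (SE 0.19) in HSCs and 0.62 (SE 0.32) in MPPs. The ratio of the replication-dependent sum to the replication-independent sum was 0.890 to 1.21 in HSC MTP10-HDL and 0.522 to 1.25 in HSC PBS libraries. It was 0.0232 to 0.0312 in MPP MTP10-HDL and 0.0346 to 0.0501 in MPP PBS libraries, where the treatments did not overlap. Of all tested MPP genes, 12.1% had every treated library above every PBS library, and 12.3% had every treated library below.

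Of 20 histone chaperones, 14 were higher with MTP10-HDL in HSCs (median 0.05) and 17 in MPPs (median 0.31). Chaf1b, a subunit of the complex that loads new H3 and H4 behind the replication fork, had 48.0 to 92.1 CPM in MTP10-HDL HSCs and 30.8 to 55.4 CPM in PBS HSCs. Its log2 fold change was 0.54 (SE 0.17, unadjusted p = 0.00544, edgeR adjusted p = 0.380). Asf1b, which hands H3 and H4 to that complex, differed by 0.54 (SE 0.25, adjusted p = 0.562 in edgeR). In MPPs, Nasp, a chaperone of H1 and of soluble H3 and H4, had 266.2 to 349.1 CPM with MTP10-HDL and 190.8 to 212.2 CPM with PBS (0.62, SE 0.21, adjusted p = 0.725 in edgeR), and Asf1a differed by 0.50 (SE 0.22).

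Genes of S phase act while histone messages are made. In HSCs 21 of 26 were higher with MTP10-HDL (median 0.17), 4 of them at an unadjusted p under 0.05, beside 8.83% of all tested genes. In MPPs all 27 were higher (median 0.47), beside 52.0% of all tested genes. Of the 27, 11 had an unadjusted p under 0.05 in edgeR, beside 6.23% of all tested genes. Of the histone genes 13 of 21 were lower, but that count rested on single libraries, as given above. Of the erythroblast markers 9 of 11 were lower in the same MPP libraries, 5 of them at an unadjusted p under 0.05 in edgeR. Of 12 stem and progenitor genes 9 were lower, 3 of them at that p, and 3 were higher, 1 of them at that p. Among all tested MPP genes, 4.06% were lower and 2.17% higher at that p. Lig1, the ligase that joins newly made DNA, had 158.5 to 314.5 CPM in MTP10-HDL HSCs and 155.1 to 236.8 CPM in PBS HSCs (0.42, SE 0.16, edgeR adjusted p = 0.494). It had 309.1 to 390.5 CPM in MTP10-HDL MPPs and 222.5 to 223.2 CPM in PBS MPPs (0.64, SE 0.21). Mcm6, a subunit of the replicative helicase, differed by 0.30 (SE 0.13) in HSCs.

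Among HSCs, the histone and S phase sums were low in the same libraries. The 4 HSC libraries with the lowest histone sums, MTP10-HDL 1 and PBS 3, 5 and 7, were also the 4 with the lowest S phase sums. The same 4 had the lowest sums of replication-independent histones (753.3 to 1044 CPM, against 1152 CPM or more in the others), so the overlap was not particular to S phase genes. PBS 5 and PBS 2 had S phase sums of 2490 and 2510 CPM, but histone sums of 588.5 and 1242 CPM. The S phase sum was 2110 to 3319 CPM in MTP10-HDL HSCs and 2226 to 3080 CPM in PBS HSCs. In MPPs it was 6012, 5845 and 5732 CPM with MTP10-HDL and 4034 and 4225 CPM with PBS, without overlap. Among all tested MPP genes, 12.1% separated in this direction and 12.3% in the other. The histone sums of the same libraries overlapped. The ratio of the histone sum to the S phase sum was 0.0127 to 0.0433 in MPP and 0.177 to 0.559 in HSC libraries.

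**Figure D5:**
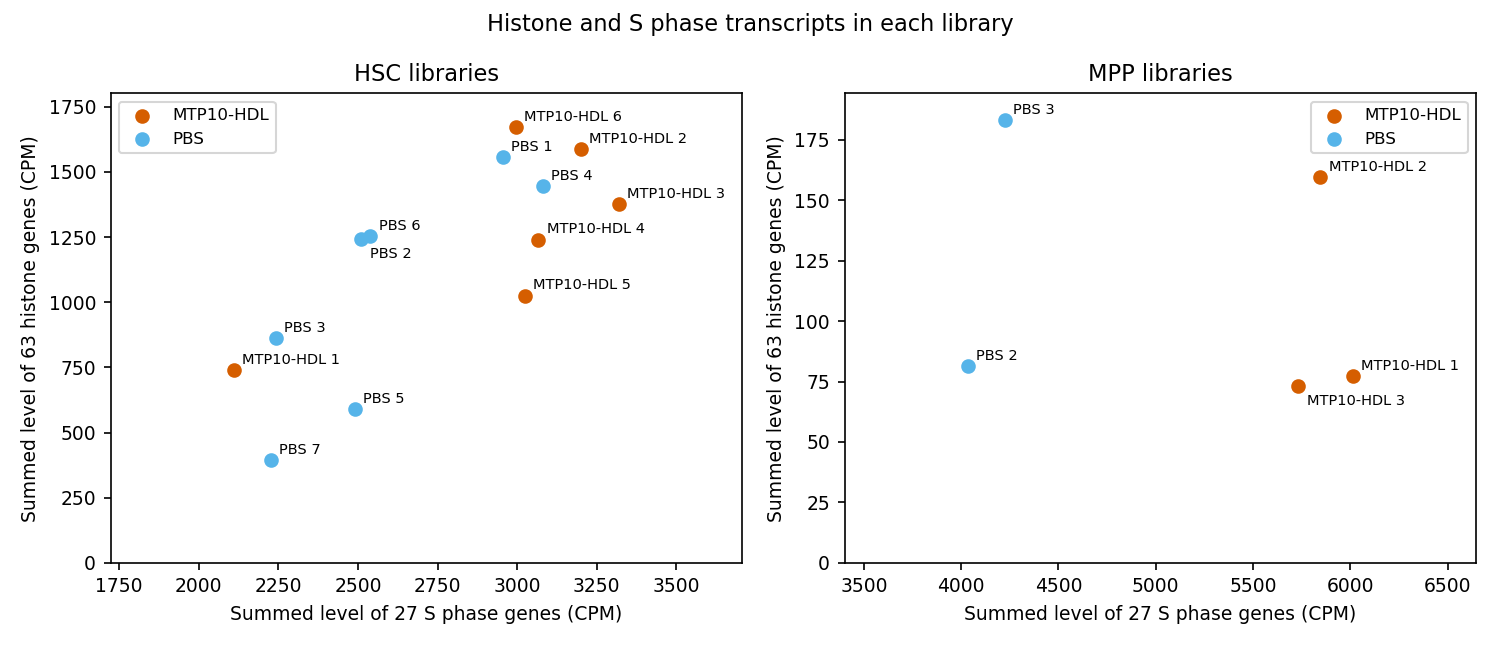
Summed level of the 63 histone genes (vertical) against that of 27 S phase genes (horizontal) in CPM, with 1 labelled point per library, orange for MTP10-HDL and blue for PBS, and separate axes for HSC and MPP libraries. Among HSCs the lower left holds MTP10-HDL 1 and PBS 3, 5 and 7, and among MPPs the treated libraries lie at 5732 to 6012 CPM of S phase genes, to the right of both PBS libraries.

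Markers of mature cells varied among the libraries that set the low end. MTP10-HDL 1 held the highest summed neutrophil markers (6023 CPM) and monocyte and macrophage markers (8608 CPM) of the HSC libraries and the lowest stem and progenitor sum (1786 CPM). PBS 5 held 4020 CPM of neutrophil markers, 495.6 CPM of B cell markers and 1865 CPM of stem and progenitor genes. PBS 7 held 154.9 CPM of neutrophil markers, 461.1 CPM of monocyte and macrophage markers, the lowest of the HSC libraries, and 2466 CPM of stem and progenitor genes. Across the HSC groups, the neutrophil sum was 666.8 to 6023 CPM with MTP10-HDL and 113.7 to 4020 CPM with PBS, with 12 of 12 fold changes above 0. The monocyte and macrophage sum was 786.2 to 8608 CPM with MTP10-HDL and 461.1 to 3791 CPM with PBS, with 9 of 12 above 0. The B cell sum was 49.7 to 136.5 CPM with MTP10-HDL and 50.4 to 495.6 CPM with PBS. The erythroblast sum was 128.9 to 254.5 CPM with MTP10-HDL and 195.1 to 618.7 CPM with PBS. Both lists had 11 of 11 tested fold changes below 0, and 7 B cell and 9 erythroblast markers had an unadjusted p under 0.05 in edgeR. Of all tested HSC genes, 47.7% were higher with MTP10-HDL, and 4.47% were lower at that p.

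In MPPs the sums of the same lists varied less between libraries, apart from the neutrophil markers of MTP10-HDL 3. Single markers could still vary widely, as Ms4a1 did (0.674 to 47.3 CPM) in the B cell list. The neutrophil sum was 257.6, 298.3 and 1778 CPM in MTP10-HDL libraries 1, 2 and 3, against 816.5 and 645.5 CPM in PBS libraries 2 and 3, with 8 of 12 fold changes above 0. The monocyte and macrophage sum was 395.8 to 611.2 CPM with MTP10-HDL and 611.5 to 719.8 CPM with PBS. Of its 12 fold changes 7 were below 0, 4 of them at an unadjusted p under 0.05 in edgeR. At that p, 4.06% of all tested MPP genes were lower. The erythroblast sum was 147.0 to 176.5 CPM with MTP10-HDL and 174.3 to 206.0 CPM with PBS (median log2 fold change of the 11 tested markers -2.12). Within it, Tfrc averaged 118.9 CPM over the MPP libraries, more than any other marker of that list, so the sum says little about the others. The B cell sum was 342.1 to 531.6 CPM with MTP10-HDL and 394.7 to 513.3 CPM with PBS, with 6 of 12 fold changes below 0. The stem and progenitor sum was 3409 to 3539 CPM with MTP10-HDL and 3509 to 3784 CPM with PBS. No marker of these lists was at 0 in all HSC or in all MPP libraries. The part of these cells in the histone and S phase values was not tested.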

How the data were processed

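The authors deposited raw read counts per Ensembl gene in 1 table for HSC and 1 for MPP libraries (18 RNA libraries). The build is mm10, per the submitters' processing notes, which name CASAVA 1.8.2 and STAR 2.5.2b for HSC samples, and STAR 2.7.2a, DESeq2 1.24 and R 3.6.1 for MPP samples. Per the labels' protocols, HSC reads were single 50-base reads of amplified cDNA, and MPP libraries were poly-A selected and directional. How reads were assigned to genes (counter, annotation, strand, several matches) is not given in the sources used here. The HSC table numbers its PBS columns 1 to 7 and the labels number theirs 1 to 6 and 8, so these columns were taken as PBS without a link to single samples, and the text uses the table's numbers.

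Each table was fitted alone in R 4.3.3 with edgeR 4.0.16 (TMM, filterByExpr, quasi-likelihood F test, Benjamini-Hochberg over all genes tested, FDR 0.05). Levels are CPM after TMM scaling. The fits were first tested on simulated data. Alternatives were DESeq2 1.42.0, limma voom (limma 3.58.1), DESeq2's size factors, no filter, a replicate block, the technical set as covariate, and libraries left out. The members and gene lists were chosen with earlier results of these data known, so no list received a test of its own. Genes named are, per table, the 2 of highest mean CPM per class and the 2 higher and 2 lower members of smallest p, and from each related list the 2 of smallest p, of which 1 gene is not reported here. Any other member named, Slbp and the markers Kit, Slamf1, Procr and Flt3 were chosen after their values were seen. Positions and promoter windows are RefSeq's, matched by symbol. ATAC-seq samples were not analysed here. P-values measure only the spread between these pools, and floors cover counting error only.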

Additional observations from a re-analysis of the deposited data

Results flagged for a closer look

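A sample far from the others of its group was sought in 52 groups of 4 to 10 libraries with Dixon's criterion, which chance meets in about 1 of 20 groups, and 2 were found. In HSC MTP10-HDL 1 the S phase sum was 2110 CPM, against a nearest treated library of 2996 CPM and a median of 3046 CPM. Its histone sum, 738.8 CPM, was also the lowest of the treated group, and its neutrophil and monocyte markers were the highest. In HSC PBS 4, H2bc4 stood at 26.2 CPM, against a nearest PBS library of 12.7 CPM and a median of 11.1 CPM. The log2 fold change of H2bc4 was -0.41 without PBS 4, against -0.75 with it.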

How the results depend on the processing

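Among the settings run, no member passed the FDR threshold in HSCs or in the difference of responses. In MPPs, 1 member passed without the filter on low counts, H1f2 (adjusted p = 0.000355 in edgeR, against 0.854 with the filter and at least 0.547 in each other setting), and 0 passed under the other settings. H1f2 was far higher in MPP PBS 3 (64.6 CPM) than in the other MPP libraries, and its log2 fold change in the filtered fit was 0.80 without PBS 3. The MPP median was 0.40 in DESeq2 and 0.46 without the filter, with 25 and 26 of 46 members higher, where more members of few counts enter. It was -0.33 to 0.34 with 1 library left out (5 to 20 higher). The HSC median was 0.15 with the replicate block, 0.27 with the technical set as covariate and 0.18 to 0.42 with 1 library left out (28 to 37 higher). The replicate block left 31 of 41 higher in HSCs and a median of -0.12 in MPPs, and it changed no call. Same-numbered HSC libraries correlated at -0.19 to 0.19 and MPP libraries at -0.17 and -0.03. These few values cannot show whether a shared number marks a shared day or litter, and the labels do not say.

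Some named members changed sign, none of them called. Without PBS 5 and 7 together (chosen after seeing the data), H1f5 was at -0.055, H2ac15 at -0.00058 and H3c6 at -0.20 in HSCs. In limma voom H2ac6 was at 0.055 and H3c15 at 0.034 in HSCs, and with the replicate block H3c11 was at 0.14 in MPPs. With 1 library left out, log2 fold changes spanned -0.35 to 0.0048 for H2bc21, -0.048 to 0.41 for H3c6 and -0.053 to 0.34 for H4c9 in HSCs, and came near 0 for H3c4 (0.011 to 0.48) and H2ac6 (-0.45 to -0.02). In MPPs they spanned -2.34 to 0.80 for H1f2, -1.09 to 0.28 for H1f5, -0.19 to 0.68 for H2bc21, -0.50 to 0.43 for H3c11, -0.59 to 0.32 for H4c14, -0.33 to 1.31 for H4c9 and -2.52 to -0.059 for H2bc4. The causes were not tested. The MPP groups of 3 and 2 libraries and the low MPP counts of most members limit what could be detected there. The difference of responses had 2 to 6 members at an unadjusted p under 0.05 with 1 library left out, and 1 in limma voom.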
